A study of Mus musculus with 9 samples.

Results

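Glycolysis and the hypoxia response were followed through 43 genes for glucose uptake, the glycolytic enzymes, the kinases that steer pyruvate, and the HIF pathway with its targets. A gene was included when the platform annotation gave its symbol to a probe set, and 41 of the 43 were measured, with 86 of the 45101 probe sets on the array. The measured genes comprise 24 of glucose metabolism and 17 of the HIF pathway, out of 18194 genes with a value. Gpi1 and Eno1 were not analysed here.

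The 9 samples were passage 3 neurospheres, floating colonies whose RNA was hybridised to Affymetrix mouse arrays. They were grown from C57BL/6J mouse embryos at embryonic day 12.5. BMP NCSC were spheres from dorsal root ganglia (DRG), sensory ganglia built by the neural crest, grown with the bone morphogenetic protein BMP4 at 10 ng/ml. rNCSC were DRG spheres grown without BMP4, and SCSC were spheres from spinal cord, also without it. All 3 groups had 20 ng/ml bFGF, 20 ng/ml EGF and 0.5 U/ml heparin in medium with N2 and B27 supplements, penicillin and streptomycin and no serum, and each group had 3 arrays. Nothing in the labels tells whether replicates are separate embryos, separate cultures or repeats of 1 RNA, and the p-values cover array-to-array spread only. Each array was made from a whole culture, in which fewer cells of a type and less RNA per cell cannot be told apart. The sources used here give no oxygen level for the cultures.

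Cells take up glucose through transporters of the Slc2a family and break it down to pyruvate through the glycolytic enzymes. Phosphofructokinase is the main control point of the chain. Pyruvate then goes to lactate through lactate dehydrogenase or into mitochondria, a step that the pyruvate dehydrogenase kinases hold back. When oxygen is short, prolyl hydroxylases of the Egln family no longer mark HIF alpha subunits for the Vhl ubiquitin ligase, and HIF raises many of these genes along with Vegfa, Bnip3 and other targets. HIF binds the core letters ACGTG or GCGTG in DNA.

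All levels and differences below are on the deposited log2 scale, where a difference of 1 is a doubling of signal. GCRMA compresses signals near the floor, and the size of a difference is uncertain where 1 group is below about 4. Array medians lay between 3.99 and 4.03. Of the 18194 genes, 10320 reached 5 on at least 3 arrays and were tested with limma. Among them were 37 of the 41 measured members, 21 of 24 for glucose metabolism and 16 of 17 for the HIF pathway. The lactate exporter Slc16a3, the kinases Pdk2 and Pdk4 and the carbonic anhydrase Car9 did not pass, and their levels lay between 2.38 and 4.24 on every array. Pfkp, Pfkfb4, Eno2 and P4ha2 passed only through the BMP NCSC arrays, which fixes the direction of any call for them. A gene was called at a Benjamini-Hochberg adjusted p below 0.05, over all genes tested, and an absolute difference of at least 1.

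Markers of the cell types were read first. Of 8 CNS progenitor markers, 7 fell in BMP NCSC against rNCSC, and Olig2 averaged 1.47 ± 0.149 in BMP NCSC, 12.10 ± 0.045 in rNCSC and 12.14 ± 0.101 in SCSC (SD, n = 3 each). Of 6 measured neural crest and glia markers, 5 were tested and all 5 rose, and the crest factor Foxd3 did not pass the filter. The mean level of the crest list ranged over 9.03 to 9.35 on BMP NCSC arrays, 3.35 to 3.65 on rNCSC arrays and 3.27 to 3.40 on SCSC arrays, so these markers were near the floor in rNCSC, which the labels describe as reprogrammed from crest cells. Of 8 cartilage and mesenchyme markers, 7 were tested and 6 rose, led by Cnmd at 13.96 ± 0.508 in BMP NCSC, 2.78 ± 0.091 in rNCSC and 2.71 ± 0.048 in SCSC. All 7 tested cell cycle genes fell in BMP NCSC. The 5 tested crest markers and Col2a1, Acan, Cnmd, Bgn and Col3a1 passed the filter only through BMP NCSC arrays, which fixes their direction. Fabp7, Olig1, Olig2, Pax6, Sox1, Zic1, Plk1 and Bub1 passed only through rNCSC and SCSC arrays, which fixes theirs. None of the 8 microglial, 5 measured erythroid or 8 skeletal muscle markers was tested, and of 8 endothelial markers Egfl7 alone was, at 2.52 higher in BMP NCSC against rNCSC and 2.32 higher against SCSC (limma adjusted p = 3.05e-06 and 4.74e-06). Of 8 neuronal markers 6 were tested, Syt1 only through BMP NCSC arrays and Rbfox3, Dcx and Elavl3 only through rNCSC and SCSC arrays. Against rNCSC, Syt1 and Snap25 rose by 2.55 and 1.88 while Rbfox3 and Dcx fell by 2.58 and 2.07, and against SCSC 1 rose and 4 fell. The mean level of the neuronal list ranged over 3.96 to 4.75 on BMP NCSC arrays, 4.11 to 4.90 on rNCSC arrays and 4.64 to 5.00 on SCSC arrays. The mean level of the cartilage list ranged over 10.97 to 11.38 on BMP NCSC arrays, 4.04 to 4.09 on rNCSC arrays and 3.97 to 4.14 on SCSC arrays. That of the cell cycle list ranged over 6.48 to 7.31, 11.80 to 11.83 and 11.89 to 11.94 in the same groups. The cartilage, cell cycle and crest lists move with every BMP NCSC difference below, and their part in it was not tested. The signal of Actb at the 3′ end exceeded that at the 5′ end by 1.03 to 1.14 in BMP NCSC, 0.84 to 0.86 in rNCSC and 0.86 to 0.88 in SCSC, and its part was not tested.

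Arrays within a group differed in the hypoxia genes before any comparison of groups. SCSC replicate 2 had the highest of the 3 SCSC levels for 33 of 37 tested members, against 34.7% of all genes. rNCSC replicate 1 had the highest rNCSC level for all 11 tested HIF targets, against 24.3% of all genes, and rNCSC replicate 3 the lowest for 10 of the 11, against 30.9%. Differences that rest on these arrays are given with and without them.

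**Figure D1:**
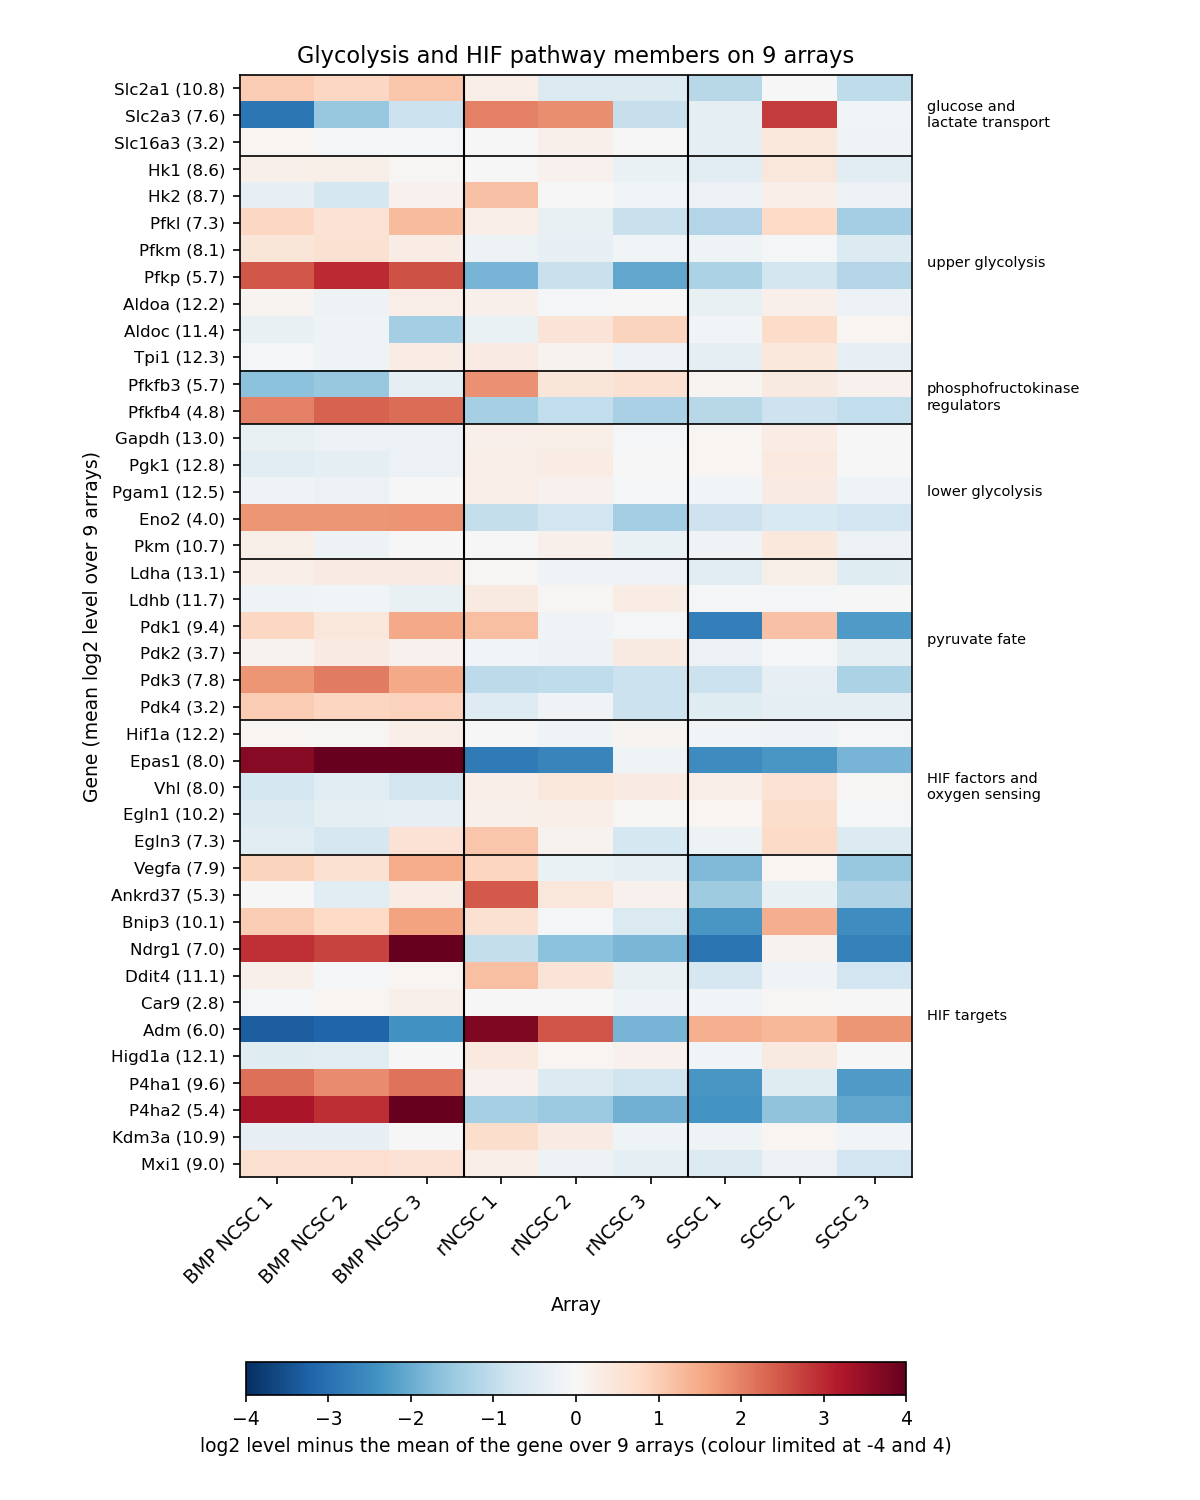
Levels of the 41 measured members (rows, grouped by role, with each gene's mean log2 level) on 9 arrays (columns), coloured by the log2 level minus the gene's mean over the 9 arrays. Most rows of the glycolytic enzymes are pale, the row of Epas1 is red in BMP NCSC, and SCSC replicate 2 differs from SCSC replicates 1 and 3 in rows such as Bnip3 and Pdk1.

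BMP NCSC were first set against rNCSC, the DRG spheres grown without BMP4. The common glycolytic enzymes were at nearly the same level in both, while single isoforms and some HIF pathway genes differed widely. Of the 37 tested members, 9 rose, 3 fell and 25 were not called in BMP NCSC against rNCSC. Over all genes tested, 22.6% rose and 21.3% fell, so the members' share of calls was below that of the array as a whole, where 43.9% were called either way. At any size of difference 22 of the 37 had an adjusted p below 0.05, against 77.9% of all genes, and for 22 of 37 no array of 1 group fell within the range of the other, against 79.6%. Differences were above 0 for 20 of 37, against 47.6%. In glucose metabolism 5 members rose, 2 fell and 14 were not called. The 5 include Pfkp, Pfkfb4 and Eno2, whose direction the filter fixed. The 2 that fell, Pfkfb3 and Slc2a3, reached 5 on 1 and 2 BMP NCSC arrays and on all 6 rNCSC and SCSC arrays. They passed the filter only through rNCSC and SCSC arrays, which favours a fall. In the HIF pathway 4 rose, 1 fell and 11 were not called. The 4 include P4ha2, whose direction was fixed likewise, and Adm, which fell, reached 5 only on rNCSC and SCSC arrays. The median difference was 0.04 for the 21 genes of glucose metabolism and -0.10 for the 16 of the HIF pathway, beside -0.07 over all genes.

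The 2 tested glucose transporters went opposite ways. Slc2a1 encodes GLUT1, the widespread basal glucose transporter. Its levels were 11.82, 11.65 and 11.92 in BMP NCSC, against 11.06, 10.22 and 10.25 in rNCSC. The groups did not overlap, and Slc2a1 rose by 1.28 ± 0.32 (SE; limma adjusted p = 0.00597). Slc2a3 encodes GLUT3, the high-affinity transporter best known from neurons. It was at 4.71, 6.10 and 6.74 in BMP NCSC, against 9.62, 9.47 and 6.70 in rNCSC, so that rNCSC replicate 3 lay within the BMP NCSC range. Slc2a3 fell by 2.75 ± 1.05 (limma adjusted p = 0.0387), and the call was lost without BMP NCSC replicate 1 or 2 or rNCSC replicate 1 or 2, with differences between -2.87 and -2.18. A second probe set of Slc2a3 fell by 2.52, and 2 others were no higher than 3.13 on any array. Tested probe set by probe set, 16 of the members' 67 were called higher and 6 lower, against 21.1% and 21.5% of all probe sets.

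Phosphofructokinase changed in its isoforms and regulators. Pfkp, the platelet-type subunit, was at 8.21, 8.69 and 8.26 in BMP NCSC, against 3.87, 4.84 and 3.64 in rNCSC. It rose by 4.27 ± 0.31 (limma adjusted p = 2.71e-06), with a wide gap between the groups. The other Pfkp probe sets were no higher than 3.86 on any array. With the mean of a gene's probe sets, Pfkp was not called against rNCSC or SCSC. Pfkl, the liver-type subunit, was at 8.14, 7.90 and 8.60 in BMP NCSC, against 7.60, 7.03 and 6.42 in rNCSC. All BMP NCSC arrays lay above all rNCSC arrays, but the difference of 1.20 ± 0.56 was not called (limma adjusted p = 0.0768). Pfkm, the muscle-type subunit, was at 8.63, 8.77 and 8.43 in BMP NCSC, against 7.95, 7.83 and 8.05 in rNCSC. Its difference of 0.67 ± 0.15 passed the p threshold (limma adjusted p = 0.00281) and was below the size limit.

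The bifunctional enzymes that set fructose 2,6-bisphosphate, an activator of phosphofructokinase, went opposite ways. Pfkfb3, the form with the strongest kinase activity, was at 4.02, 4.15 and 5.26 in BMP NCSC, against 7.50, 6.13 and 6.26 in rNCSC. It fell by 2.15 ± 0.42 (limma adjusted p = 0.00132), with rNCSC replicate 1 the highest of the 6 arrays. Pfkfb4 was at 6.83, 7.17 and 7.05 in BMP NCSC, against 3.48, 3.84 and 3.53 in rNCSC. It rose by 3.40 ± 0.14 (limma adjusted p = 7.81e-08). Pfkfb2, the heart form, is not among the 43 genes. It rose by 1.18 ± 0.20 (limma adjusted p = 0.000644).

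The abundant enzymes of the main chain varied little. Hk1, Aldoa, Tpi1, Pgam1 and Pkm, which carry out phosphorylation, cleavage, isomerisation, the mutase step and the last ATP-yielding step, had differences between -0.25 and 0.20, none with an adjusted p below 0.05. Gapdh and Pgk1, which oxidise and then dephosphorylate the triose, differed by -0.37 ± 0.11 and -0.53 ± 0.13 (limma adjusted p = 0.0138 and 0.00562), below the size limit. Hk2, the hexokinase that HIF can raise, averaged 8.40 in BMP NCSC and 9.05 in rNCSC and was not called (limma adjusted p = 0.123). Aldoc, the brain aldolase, just missed the size limit, with means of 10.80 in BMP NCSC and 11.79 in rNCSC (limma adjusted p = 0.0486). A second, dimmer Aldoc probe set gave 0.96 and was not called, so the direction for this gene depends on the probe set.

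Eno2, the neuronal enolase, was at 5.72, 5.71 and 5.76 in BMP NCSC, against 3.00, 3.20 and 2.58 in rNCSC. It rose by 2.80 ± 0.15 (limma adjusted p = 4.28e-07). Eno3, the muscle enolase and no member of the list, rose by 2.95 ± 0.12 (limma adjusted p = 9.27e-08), with means of 7.05 in BMP NCSC and 4.10 in rNCSC.

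At the pyruvate branch 1 of the 2 tested kinases rose. Pdk3 was at 9.56, 9.88 and 9.32 in BMP NCSC, against 6.75, 6.79 and 6.93 in rNCSC, and rose by 2.76 ± 0.23 (limma adjusted p = 7.01e-06). Pdk1, the kinase most tied to HIF, was at 10.19, 9.80 and 10.89 in BMP NCSC, against 10.56, 9.22 and 9.31 in rNCSC. The groups overlapped through rNCSC replicate 1, and the difference of 0.60 ± 0.93 was not called (limma adjusted p = 0.57). Pdk4 was under the filter at 4.24, 4.07 and 4.15 in BMP NCSC, against 2.70, 3.08 and 2.38 in rNCSC. With no filter on low values Pdk4 was called higher against rNCSC and against SCSC, with means of 4.16 in BMP NCSC, 2.72 in rNCSC and 2.80 in SCSC. Pdk2 lay at 3.88, 4.05 and 3.90 in BMP NCSC and 3.61, 3.53 and 4.09 in rNCSC. Ldha, which makes lactate, differed by 0.39 and Ldhb, which favours the reverse step, by -0.42, both below the size limit.

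**Figure D2:**
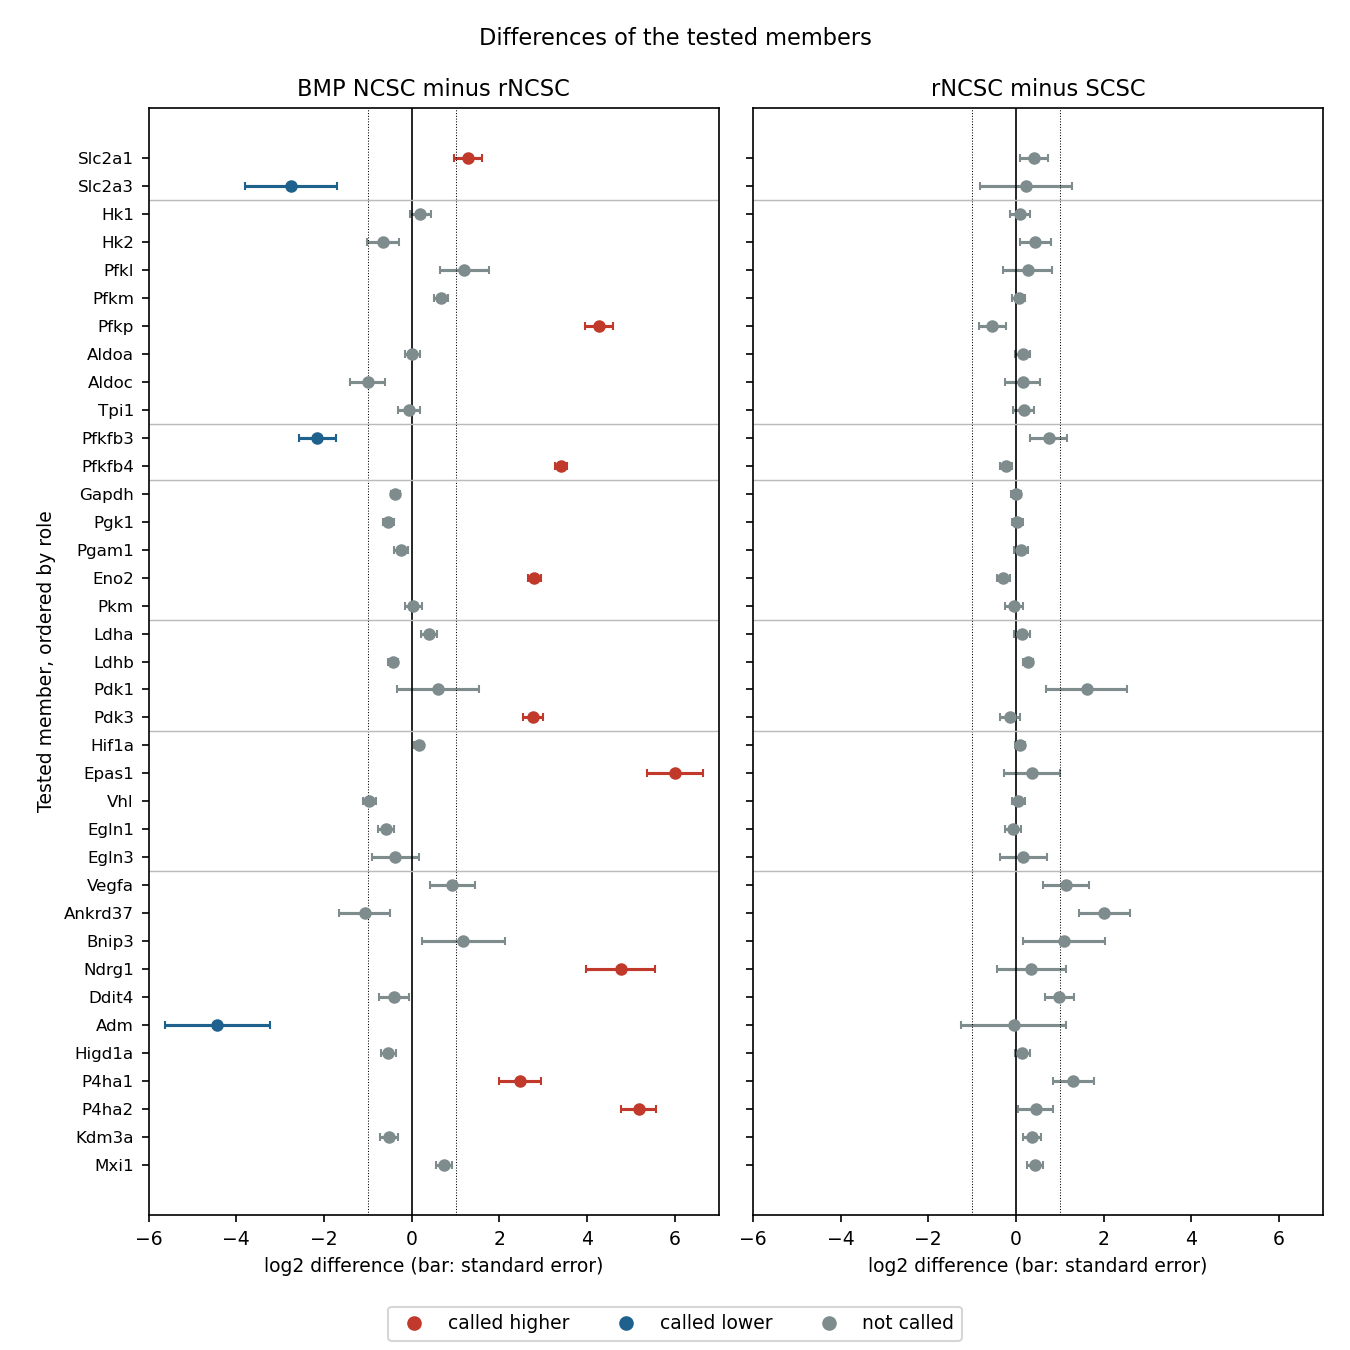
The log2 difference of each of the 37 tested members with its standard error, for BMP NCSC minus rNCSC on the left and rNCSC minus SCSC on the right, with dotted lines at the size limit of 1 and genes in order of role. On the left 9 points are called higher and 3 lower, with Epas1 at 6.01 and Adm at -4.43, and on the right none is called.

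Among the HIF factors and oxygen sensors, Epas1 was the 1 gene called of 5. Epas1 encodes HIF-2 alpha, the HIF subunit known from endothelium and the sympathoadrenal lineage. Its levels were 11.59, 12.16 and 12.51 in BMP NCSC, against 5.13, 5.33 and 7.79 in rNCSC. Every BMP NCSC array was above every rNCSC array, and Epas1 rose by 6.01 ± 0.64 (limma adjusted p = 3.12e-05). The other Epas1 probe set was no higher than 3.87 on any array and was not tested, so the difference rests on 1 probe set. Within rNCSC, replicate 3 was the highest for Epas1. Hif1a, the subunit found in most cells, was at 12.25, 12.22 and 12.45 in BMP NCSC, against 12.16, 12.00 and 12.29 in rNCSC, and was not called at 0.16 ± 0.11 (limma adjusted p = 0.206). The ligase subunit Vhl was just short of the size limit at -0.97 ± 0.15 (limma adjusted p = 0.000289). The hydroxylase Egln1 differed by -0.59 ± 0.18, while a second Egln1 probe set fell by 1.80 (limma adjusted p over probe sets = 0.000245). Egln3, a hydroxylase that is itself a HIF target, differed by -0.37 ± 0.53.

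Of the 11 tested HIF targets, 3 rose, 1 fell and 7 were not called, where 22.6% of all genes rose and 21.3% fell. The median difference of the 11 was 0.73, beside -0.07 over all genes. The collagen prolyl 4-hydroxylase subunits P4ha1 and P4ha2, which modify proline in collagen so that the triple helix is stable, both rose. P4ha2 was at 8.71, 8.37 and 10.00 in BMP NCSC, against 4.10, 3.94 and 3.52 in rNCSC, and rose by 5.18 ± 0.40 (limma adjusted p = 4.33e-06). P4ha1 was at 11.79, 11.49 and 11.78 in BMP NCSC, against 9.78, 9.05 and 8.81 in rNCSC, and rose by 2.47 ± 0.47 (limma adjusted p = 0.00125). For both genes BMP NCSC lay above every rNCSC array. The cartilage collagen Col2a1, whose chains these enzymes modify, averaged 14.17 in BMP NCSC and 3.18 in rNCSC. Whether the cartilage markers account for the rise of P4ha1 and P4ha2 was not tested.

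Ndrg1, a stress-response gene that is also known from Schwann cells, was at 9.91, 9.68 and 11.27 in BMP NCSC, against 6.04, 5.33 and 5.17 in rNCSC. It rose by 4.77 ± 0.79 (limma adjusted p = 0.000509), and the 4 tested of its 5 probe sets were called higher, by 2.91 to 4.77. Of the 4, all but the brightest reached 5 only on BMP NCSC arrays, or only there and on SCSC replicate 2. That fixed their direction against rNCSC. Adm, which encodes the vasodilator peptide adrenomedullin, went the other way. It was at 2.67, 2.77 and 3.54 in BMP NCSC, against 9.69, 8.49 and 4.09 in rNCSC. Adm fell by 4.43 ± 1.20 (limma adjusted p = 0.00828), and within rNCSC replicate 3 stood far below the other two arrays. Without rNCSC replicate 3 the difference was -6.10, and without rNCSC replicate 1 it was -3.30.

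Other targets were not called. Vegfa, the vascular growth factor, differed by 0.93 ± 0.52 and the mitophagy gene Bnip3 by 1.18 ± 0.94. Ankrd37, an ankyrin repeat gene, differed by -1.07 ± 0.58, and it was called lower at -1.50 without rNCSC replicate 3 but stood at -0.35, not called, without rNCSC replicate 1. Ddit4, an inhibitor of mTOR signalling, differed by -0.41 ± 0.34 and the histone demethylase Kdm3a by -0.52 ± 0.21. Mxi1, an antagonist of Myc, was at 9.59, 9.64 and 9.53 in BMP NCSC, against 9.21, 8.75 and 8.61 in rNCSC, a difference of 0.73 ± 0.18. Higd1a, a mitochondrial protein, differed by -0.53 in its brightest probe set, while another was called higher at 1.07, so its direction depends on the probe set.

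Further genes of these pathways were read from lists chosen for this purpose. Over all genes tested, 22.6% rose and 21.3% fell in BMP NCSC against rNCSC. Of 10 other glycolysis genes tested, 3 rose and none fell, and the median difference was 0.71. Slc2a10, a glucose transporter family member, rose by 4.97 ± 0.22 (limma adjusted p = 1.4e-07), and its level was near the floor in rNCSC. The other two that rose were Eno3 and Pfkfb2. Slc2a10 and Eno3 reached 5 only on BMP NCSC arrays, which fixes the direction of their calls. Of 8 genes for pyruvate entry into mitochondria, 2 rose and 2 fell, with a median of -0.75. Pcx, pyruvate carboxylase, rose by 3.80 and Pdp1, the phosphatase that opposes the Pdk kinases, by 2.19. The pyruvate dehydrogenase components Pdhx and Dlat fell by 2.21 and 1.11. Of 14 pentose phosphate and glycogen genes, 2 rose and 3 fell, with a median of -0.40. The glycogen phosphorylase Pygl rose by 3.00 and Ugp2, which makes UDP-glucose, by 2.10. Pygl likewise reached 5 only on BMP NCSC arrays. The pentose phosphate enzymes Pgls and Rpia fell by 1.54 and 1.47, and the glycogen synthase Gys1 by 1.13.

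Of 12 other HIF pathway genes, 1 rose and 2 fell, against 22.6% and 21.3% of all genes, with a median of -0.14. Cited2, a transcriptional brake that competes with HIF for its coactivator, rose by 3.37 ± 0.14 (limma adjusted p = 8.97e-08). Arnt2, the neural partner of HIF alpha subunits, fell by 2.44 ± 0.30, and Rbx1, a ring finger part of the Vhl ligase, by 1.23 ± 0.17. Arnt, the general partner, stayed under the size limit at 0.97 ± 0.18. Of 19 other HIF targets, 8 rose and 1 fell, against 22.6% and 21.3% of all genes, with a median of 0.63. The collagen crosslinking genes Lox and Plod1 rose by 4.20 and 2.40, the placental growth factor Pgf by 3.17 and the lipoprotein receptor Vldlr by 1.90, while Cited1 fell by 3.33. Lox and Pgf reached 5 only on BMP NCSC arrays, and Cited1 and Rbx1 only on rNCSC and SCSC arrays, which fixes their direction.

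**Figure D3:**
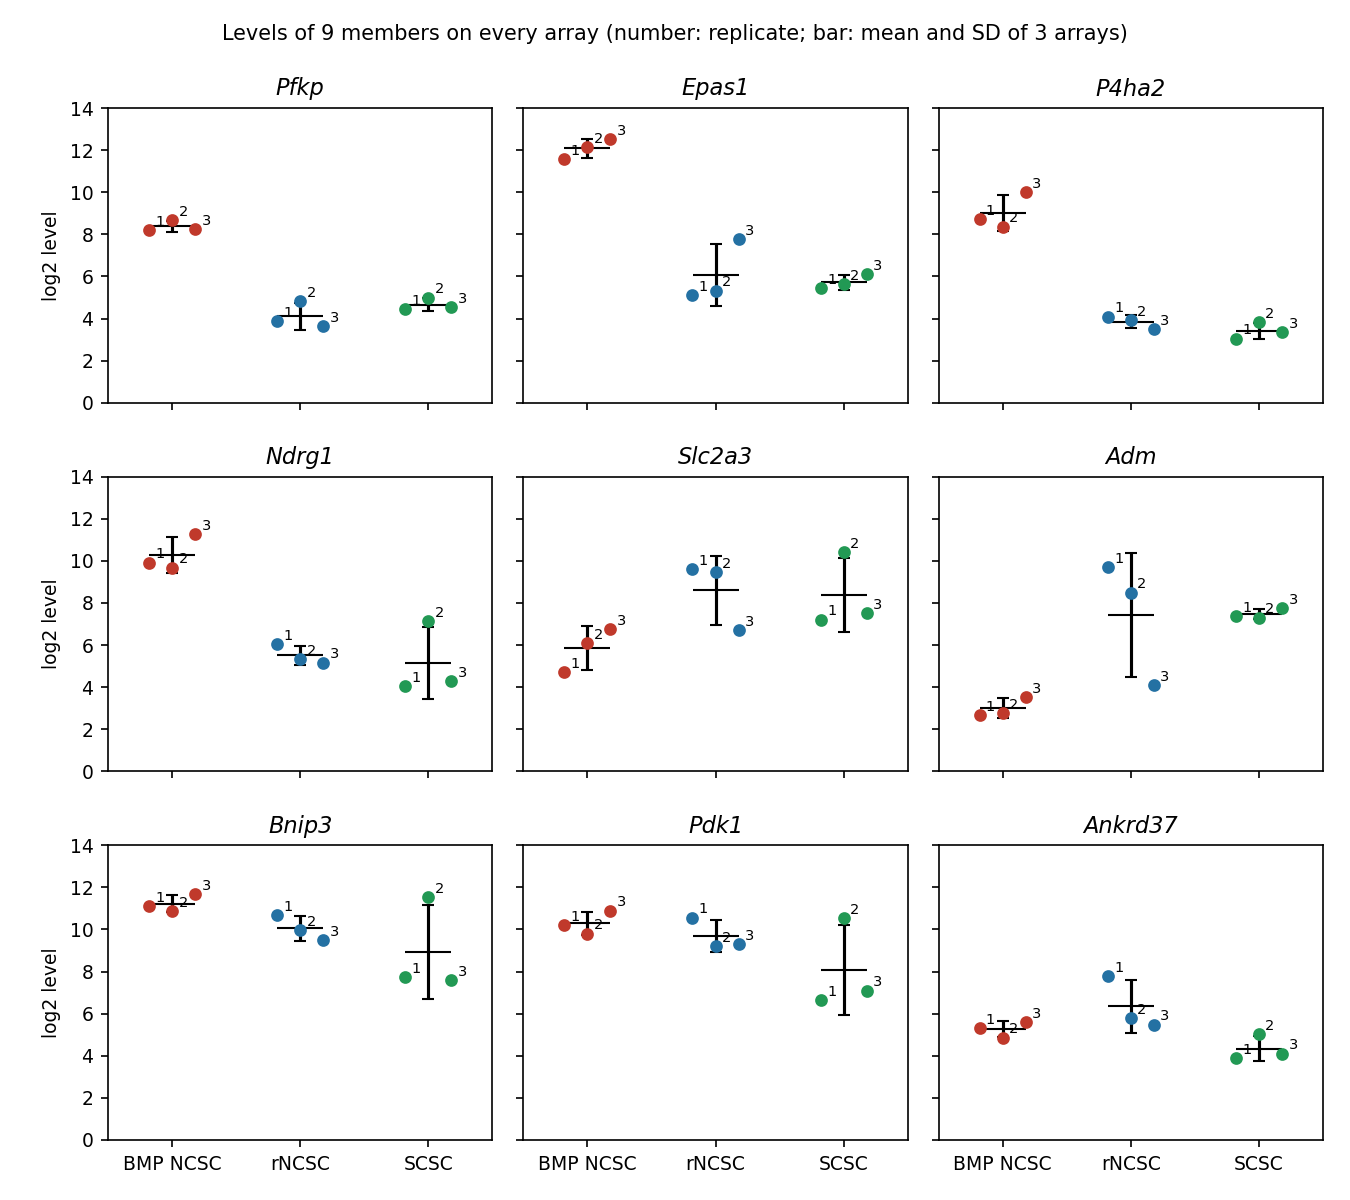
Log2 levels of 9 members on every array, with replicate numbers, group means and SD (n = 3), for BMP NCSC, rNCSC and SCSC from left to right. Pfkp, Epas1 and P4ha2 separate BMP NCSC from both other groups, Adm and Slc2a3 spread widely in rNCSC, and Bnip3 and Pdk1 spread widely in SCSC, where replicate 2 is at 11.52 and 10.54.

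BMP NCSC were also compared with the spinal cord spheres. This comparison shares its BMP NCSC arrays with the first, so the values stand side by side. BMP NCSC and SCSC differ in tissue of origin and in BMP4 together, which cannot be told apart here. Of the 37 tested members, 12 rose, 2 fell and 23 were not called in BMP NCSC against SCSC, where 22.9% of all genes rose and 24% fell, 46.9% in all. At any size 20 had an adjusted p below 0.05, against 79.7% of all genes. The arrays did not overlap for 24, against 83.6%, and 22 differences were above 0, against 46.9%. By probe set, 23 of 67 were called higher and 5 lower, against 21.7% and 23.9% of all probe sets. In glucose metabolism 6 rose and 1 fell of 21, and in the HIF pathway 6 rose and 1 fell of 16. The medians were 0.16 and 0.76, beside -0.10 over all genes. Epas1 rose by 6.37, P4ha2 by 5.62, Ndrg1 by 5.13, P4ha1 by 3.79, Pfkp by 3.73, Pfkfb4 by 3.18, Pdk3 by 2.63, Eno2 by 2.51 and Slc2a1 by 1.68. Adm fell by 4.48 and Pfkfb3 by 1.40.

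Pfkl, Vegfa and Mxi1 rose here without a call against rNCSC. Vegfa was at 8.73, 8.47 and 9.35 in BMP NCSC, against 6.09, 7.93 and 6.34 in SCSC, and rose by 2.07 ± 0.52 (limma adjusted p = 0.00555). Mxi1 rose by 1.16 ± 0.18 (limma adjusted p = 0.00036). Pfkl was at 8.14, 7.90 and 8.60 in BMP NCSC, against 6.16, 8.12 and 5.95 in SCSC. Its groups overlapped through SCSC replicate 2. Pfkl rose by 1.47 ± 0.56 (limma adjusted p = 0.0364), but leaving out BMP NCSC replicate 1, 2 or 3 or SCSC replicate 1 or 3 removed the call. Slc2a3 at -2.53 ± 1.05, Pdk1 at 2.21 ± 0.93 and Bnip3 at 2.28 ± 0.94 lay just outside the p threshold (limma adjusted p = 0.0516, 0.0545 and 0.0501).

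The last comparison asked whether DRG spheres grown without BMP4 differed from spinal cord spheres. No member was called in rNCSC against SCSC by limma, where 0.00969% of all genes were called, and 5 of 37 members had an unadjusted p below 0.05, against 13.7% of all genes. Of the 37 differences 29 were above 0, against 40.3% of all genes. Above 0 were 15 of 21 in glucose metabolism, with a median of 0.13 that was -0.01 and -0.05 without SCSC replicate 1 or 3 and 0.31 without SCSC replicate 2, and 14 of 16 in the HIF pathway, with a median of 0.36, beside -0.04 over all genes. The members of 1 pathway share samples and regulators and are not independent counts. Arrays did not overlap for 3 of 37 members, against 20.7% of all genes. By probe set no member was called either, against 0.00566% of all probe sets.

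The 5 members with the smallest p were Ankrd37, Ddit4, P4ha1, Ldhb and Mxi1. Ankrd37 was at 7.77, 5.77 and 5.48 in rNCSC, against 3.88, 5.02 and 4.10 in SCSC, a difference of 2.01 ± 0.58 (limma adjusted p = 0.233). Its groups did not overlap. Ddit4 was at 12.24, 11.57 and 10.75 in rNCSC, against 10.37, 10.90 and 10.30 in SCSC, a difference of 0.99 ± 0.34 (limma adjusted p = 0.265). P4ha1 was at 9.78, 9.05 and 8.81 in rNCSC, against 7.26, 9.11 and 7.33 in SCSC, a difference of 1.31 ± 0.47 (limma adjusted p = 0.29). For Ddit4 and P4ha1 the groups overlapped through SCSC replicate 2. Mxi1 was at 9.21, 8.75 and 8.61 in rNCSC, against 8.38, 8.72 and 8.18 in SCSC, a difference of 0.43 ± 0.18. Ldhb was at 12.08, 11.75 and 12.01 in rNCSC, against 11.63, 11.67 and 11.71 in SCSC, a difference of 0.28 ± 0.11.

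The HIF subunits and the genes with wide differences above were also read in both groups without BMP4. Epas1 was at 5.13, 5.33 and 7.79 in rNCSC and 5.44, 5.62 and 6.10 in SCSC, while Hif1a was at 12.16, 12.00 and 12.29 in rNCSC and 12.05, 12.01 and 12.13 in SCSC. Pfkp averaged 4.12 in rNCSC and 4.66 in SCSC, and Pfkfb4 averaged 3.62 and 3.84 in the same groups. Adm was at 9.69, 8.49 and 4.09 in rNCSC, against 7.38, 7.30 and 7.74 in SCSC. The SD of Adm was 2.95 in rNCSC and 0.231 in SCSC.

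Spread within groups was the other pattern of these genes. In SCSC, Bnip3 was at 7.73, 11.52 and 7.58, Pdk1 at 6.64, 10.54 and 7.09, and Slc2a3 at 7.21, 10.41 and 7.51. Replicate 2 stood above the other 2 arrays each time, in Bnip3 at the level of BMP NCSC, which was 11.10, 10.88 and 11.69. Ndrg1 was at 4.06, 7.12 and 4.29 in SCSC, so replicate 2 was intermediate between the other SCSC arrays and BMP NCSC. Of the 37 members, 34 were above the mean of the other 2 SCSC arrays in replicate 2, against 5388 of 10320 genes. The excess was at least 1 for 10 members, a share of 27% against 0.32% of all genes. Over all 10320 genes the SCSC arrays were close, with SDs of the difference between 2 arrays of 0.262 to 0.306. Ordered by how far SCSC replicate 2 exceeded the other 2, Bnip3, Pdk1, Slc2a3 and Ndrg1 were at ranks 2 to 5, and Pfkl, P4ha1 and Vegfa at 7, 8 and 12.

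Rank 1 was Xist, the RNA that silences an X chromosome in female cells. It was at 11.68, 11.67 and 10.67 in BMP NCSC, 2.67, 12.19 and 2.37 in rNCSC and 2.40, 11.75 and 2.62 in SCSC. High Xist and high HIF targets fell on the same array in SCSC but on different arrays in rNCSC. All 3 BMP NCSC arrays had high Xist, against 1 of 3 in rNCSC and 1 of 3 in SCSC, so both BMP NCSC comparisons were unbalanced for it, and its part in them was not tested. The members Pdk3 and Pgk1 lie on the X chromosome. Pdk3 was at 6.79 on the rNCSC array with high Xist and at 6.75 and 6.93 on the other two, and at 7.45 on the SCSC array with high Xist and at 6.92 and 6.51 on the other two.

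rNCSC replicate 1 exceeded the mean of its other 2 arrays for 31 of 37 members, against 4478 of 10320 genes. The excess was at least 1 for 9 members, a share of 24.3% against 0.746% of all genes. It was 3.40 for Adm, 2.15 for Ankrd37 and 1.53 for Slc2a3. In rNCSC replicate 3 all 11 HIF targets were below the mean of the other 2 arrays, by 0.06 to 5.00, while 5782 of 10320 genes were above it. In BMP NCSC, replicate 3 was above the mean of the other 2 arrays for 28 of 37 members, against 4697 of 10320 genes. The largest excess of a member there was 1.48. The abundant enzymes Tpi1 and Ldha took part in SCSC: Tpi1 was at 11.91, 12.70 and 11.95, and Ldha at 12.67, 13.31 and 12.61. Hif1a did not, at 12.05, 12.01 and 12.13. The mean levels of the cartilage, cell cycle and crest lists within SCSC lay in the narrow ranges given above, and the labels name no batch.

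**Figure D4:**
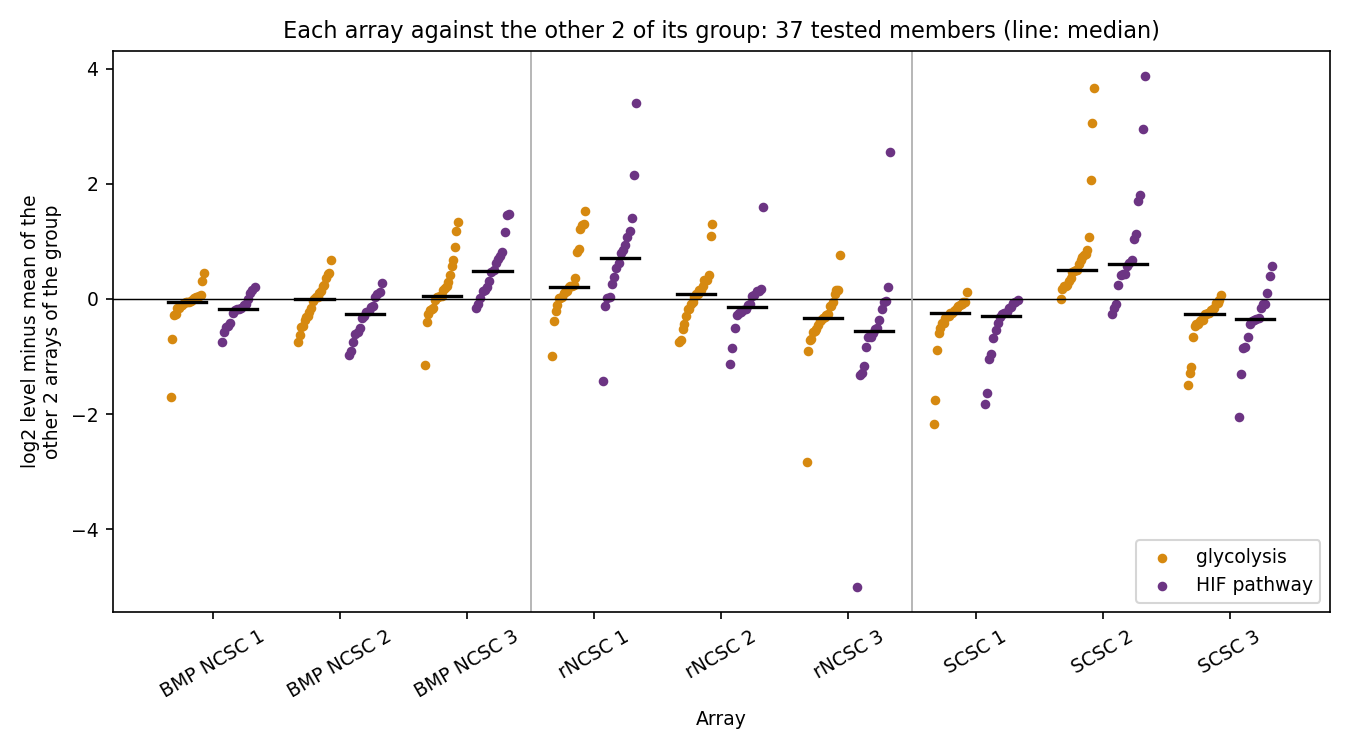
For each array, the log2 level of 37 tested members minus the mean of the other 2 arrays of its group (points), with the median as a line, for glucose metabolism (orange) and the HIF pathway (purple). SCSC replicate 2 has medians of 0.51 and 0.60 and rNCSC replicate 1 of 0.20 and 0.71, and rNCSC replicate 3 has -0.34 and -0.56.

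Promoters of 7 members are shown because they hold the core letters of a HIF site. Sequences are from RefSeq on GRCm38.p6, read in the direction of the gene, and end just before the annotated start of the gene, except that of Pdk1, which ends at position -10 from it. Capitals mark ACGTG or GCGTG on either strand, which reads CACGT or CACGC on the other, and matches may overlap. Bnip3, Pdk1, P4ha2, Slc2a1, Adm and Pfkl varied between groups or arrays, and Pgk1 is an enzyme with a small difference.
Bnip3, chr7:138909507-138909676, minus strand: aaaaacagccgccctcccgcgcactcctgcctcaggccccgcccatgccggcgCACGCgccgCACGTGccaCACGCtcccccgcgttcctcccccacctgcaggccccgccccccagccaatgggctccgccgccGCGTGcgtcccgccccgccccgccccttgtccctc
Pdk1, chr2:71873054-71873214, plus strand: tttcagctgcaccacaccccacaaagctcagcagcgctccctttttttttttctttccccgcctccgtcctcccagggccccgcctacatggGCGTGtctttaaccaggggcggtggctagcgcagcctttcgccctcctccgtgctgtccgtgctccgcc
P4ha2, chr11:54100754-54100923, plus strand: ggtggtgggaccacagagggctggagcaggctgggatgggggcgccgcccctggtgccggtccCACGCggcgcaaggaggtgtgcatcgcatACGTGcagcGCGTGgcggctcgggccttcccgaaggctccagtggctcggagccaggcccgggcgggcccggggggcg
Slc2a1, chr4:119108575-119108744, plus strand: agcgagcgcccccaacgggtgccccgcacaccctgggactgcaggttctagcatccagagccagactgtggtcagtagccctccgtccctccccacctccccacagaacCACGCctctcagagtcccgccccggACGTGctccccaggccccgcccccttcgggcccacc
Adm, chr7:110627487-110627656, plus strand: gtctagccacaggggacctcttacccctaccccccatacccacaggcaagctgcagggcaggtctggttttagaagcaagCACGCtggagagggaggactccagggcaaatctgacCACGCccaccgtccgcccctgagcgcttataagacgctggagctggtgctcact
Pfkl, chr10:78009808-78009977, minus strand: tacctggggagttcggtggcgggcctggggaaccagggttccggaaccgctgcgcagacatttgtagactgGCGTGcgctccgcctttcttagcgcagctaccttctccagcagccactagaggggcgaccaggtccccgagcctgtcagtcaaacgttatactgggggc
Pgk1, chrX:106186930-106187099, plus strand: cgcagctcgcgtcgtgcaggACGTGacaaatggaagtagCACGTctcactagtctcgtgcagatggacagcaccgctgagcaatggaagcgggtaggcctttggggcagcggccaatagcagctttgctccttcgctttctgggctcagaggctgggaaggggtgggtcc
Bnip3 held 5 matches in the window, P4ha2 held 3, Slc2a1, Adm and Pgk1 held 2 each, and Pdk1 and Pfkl held 1 each. In the 250 bases before the start, 38.6% of all 32851 promoters of the table held at least 1 match. Of the promoters of the measured members 42 of 55 did, a share of 76.4%. A match in at least 1 promoter was found for 35 of 38 members with an entry, a share of 92.1%, against 41.5% of all genes of the table. The shares of promoters were 77.1% for glucose metabolism and 75% for the HIF pathway. Eno2, which rose by 2.80 in BMP NCSC against rNCSC, had none in its 1 listed promoter. The members were listed partly as HIF targets, which favours matches. They had 55 promoters for 38 genes, against 32851 for 27025 in the table, which raises a share counted by gene. Base composition was not matched, and a match is a run of letters, not a site shown to be bound.

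The 3 comparisons were repeated without rNCSC replicate 1 and SCSC replicate 2, a choice made after these arrays had been seen to stand apart. That left 2 arrays each in rNCSC and SCSC. Against rNCSC, 13 members then rose and 4 fell in BMP NCSC, where 22.1% of all genes rose and 21.5% fell. The added calls were Bnip3 at 1.49 ± 0.27, Pdk1 at 1.03 ± 0.32, Vegfa at 1.32 ± 0.26 and Pfkl at 1.49 ± 0.26 higher, and Aldoc at -1.33 and Vhl at -1.02 lower, while Slc2a3 was no longer called. The median of the 11 HIF targets was 0.91 there. Against SCSC, Bnip3 rose by 3.57 ± 0.27, Pdk1 by 3.43 ± 0.32 and Ankrd37 by 1.28 ± 0.23 in addition, with 15 higher and 2 lower, where 22.8% of all genes rose and 23.8% fell. In rNCSC against SCSC no member was called, although Pdk1 was at 2.40 ± 0.35 and Bnip3 at 2.08 ± 0.29 (limma adjusted p = 0.291 and 0.265). Removing arrays for their high HIF targets favours such differences, so these values describe the remaining arrays and support no call of their own. Single arrays also decided some calls. With SCSC replicate 2 alone left out, Bnip3 and Pfkl were called higher against rNCSC, with the differences themselves unchanged, and Bnip3 and Pdk1 higher against SCSC. Aldoc and Vhl were called lower against rNCSC without BMP NCSC replicate 2 or without rNCSC replicate 1. Against SCSC, Vhl was called lower without BMP NCSC replicate 2 or SCSC replicate 3, and Slc2a3 without rNCSC replicate 3 or SCSC replicate 1.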

How the data were processed

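The authors deposited log2 values for every probe set and array, which GCRMA produced according to the submitters' processing notes. The sources used here give no version. Titles gave the groups. Among 45101 probe sets the platform annotation names 1 gene for 34958, several for 932, which were not used, and none for 9211. Where a gene had more than 1 probe set, the brightest by mean over 9 arrays stood for it, and genes at 5 or more on at least 3 arrays were tested. Group means were fitted over all 9 arrays with limma 3.58.1 in R 4.3.3, with moderated variances, two-sided p-values and Benjamini-Hochberg adjustment over 10320 genes. Each probe set was also tested separately. The steps were tested on simulated data. The members and gene lists were chosen with earlier results of these data known. Values on every array are given for called members, their paralogues and the 5 smallest p-values of rNCSC against SCSC, and further genes shown array by array were chosen after their values were seen. Promoter sequences came from RefSeq. Alternatives changed the filter, probe sets, arrays, normalization, weights, thresholds and a block for the replicate number.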

Additional observations from a re-analysis of the deposited data

How the results depend on the processing

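In BMP NCSC against rNCSC the glycolysis members called lower numbered 2, and 1 with no filter on low values, a filter of 7, the mean of a gene's probe sets, probe sets designed for 1 transcript first or an adjusted p under 0.01; leaving out 1 array gave 1 to 2. A filter of 7 left 3 called higher. The HIF pathway members called lower numbered 1, and 2 with the mean of probe sets, array quality weights, quantile normalization or without the 2 arrays that stood apart; leaving out 1 array gave 1 to 2. With no size limit 6 glycolysis and 5 HIF pathway members were lower, and 8043 genes in place of 4532 were called, and 7532 when every probe set was tested separately.

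In BMP NCSC against SCSC the glycolysis members called lower numbered 1, and 0 with a filter of 7 or an adjusted p under 0.01, 2 with the 6 arrays compared alone, an intensity trend or array weights, and 3 with no size limit; leaving out 1 array gave 1 to 2. The HIF pathway members called lower numbered 1, 2 with the mean of probe sets and 3 with no size limit; leaving out 1 array gave 1 to 2. Calls over all genes numbered 4839, 8223 with no size limit and 8050 over probe sets.

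In rNCSC against SCSC the genes called numbered 1, and 4 with a filter of 7 or an intensity trend, 14 with array weights, and 0 with the 6 arrays alone, an adjusted p under 0.01, the replicate block or without the 2 arrays; leaving out 1 array gave 0 to 71, the highest without rNCSC replicate 2. No member was called there under any setting. Same-numbered arrays of 2 groups correlated at 0.04 to 0.30 in their deviations from group means, and differently numbered arrays at -0.24 to 0.12. The labels do not say whether a number pairs samples, and the main fit did not pair them. Whether same-numbered arrays share a source was not tested. A block for the replicate number kept all 12 members called against rNCSC and lost Pfkl of the 14 against SCSC. No called member turned its direction under these settings, but leaving out 1 array moved the medians against rNCSC across 0, over -0.02 to 0.15 for glycolysis and -0.17 to 0.13 for the HIF pathway, and likewise the glycolysis median of rNCSC against SCSC, over -0.05 to 0.31. The number of arrays and levels near the floor limit the precision.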
